A study of Mus musculus with 6 samples.

Results

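Heat shock genes encode chaperones, proteins that hold or refold other proteins, and most of them are switched on by heat and other protein-damaging stress through heat shock factor 1 (HSF1), which binds short repeated motifs in their promoters. Cold shock genes are induced when cells are kept below body temperature, and in mammals the best known are the RNA-binding proteins CIRBP and RBM3. Male germ cells have long been studied in both respects, since spermatogenesis is harmed by heat and CIRBP is made constitutively in male germ cells. The 10 genes examined here were the rows of the count table named Hsf1, Hspa8, Hspa1a, Hspa1b, Hsph1, Hsp90aa1, Dnajb1, Hspb1, Cirbp and Rbm3, out of 32285 genes. All 10 passed the filter on low counts that left 15104 genes for testing.

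The samples were 6 RNA-seq libraries of mouse germline stem (GS) cells, spermatogonia that proliferate in culture on mouse embryonic fibroblasts with GDNF and FGF2. Every library came from DBA/2 cells of the genotype DBA/Tg14(act-EGFP-OsbY01), an EGFP transgene under an actin promoter that was bred from C57BL6 into DBA/2, and the cells were derived from testes of mice 2 to 3 days old. Both groups were kept in a freezer for 6 months, 3 libraries (Space) aboard the International Space Station and 3 (Ground) on Earth. Per the study, cells were held in liquid nitrogen after arrival in Kyoto, for a time not given. They were then thawed in a warm water bath, and RNA was taken on the following day without passage. The question was whether storage in orbit had altered expression in the thawed cells. No unfrozen cells and no cells collected at the moment of thawing were part of these 6 libraries, so what freezing or thawing does to these genes was not measured. Groups follow the library titles. The treatment label gives the opposite group for all 6 libraries, and each sign below would turn if that label were right. The study describes 3 cell lines per group, but no label says which libraries share a line or culture, so the spread between libraries may be partly technical.

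Library totals lay between 19015985 and 24110916 counts, and no 2 libraries were copies of each other. The pair nearest to it was Ground-1 and Space-3, of opposite groups, with a mean chi-square of their counts of 1.84 per gene (1 under counting error alone), beside 13.8 to 110.8 in the other 14 pairs. Mitochondrially encoded transcripts took 2.51% to 5.69% of the counts in 4 libraries, 11.5% in Ground-2 and 7.12% in Space-2. All 8 spermatogonia markers were expressed, with a summed level of 2700 to 2832 CPM in Ground and 2783 to 2830 in Space. CPM are counts per 1000000 counts of the library after TMM scaling (trimmed mean of M-values). The spermatogonia sum rests mostly on Dazl, Ret and Ddx4. Etv5 was lowest in Ground-3 (93.0 CPM) and Space-1 (99.0), beside 194.5 to 261.6 in the other 4 libraries. Gfra1 was also lowest there, at 100.3 and 101.2 CPM beside 141.0 to 148.4, whereas Dazl and Sall4 were highest in these 2 libraries. All 14 feeder fibroblast markers were detected too, at 973 to 1020 CPM in Ground and 819 to 1038 in Space, and Space-1 held the lowest sum. The summed level rests mostly on Fn1, Col5a1 and Col1a1, and across the list 13 of 14 markers were fitted below 0 in Space under all 3 scalings, with a median log2 fold change of -0.28. In edgeR 0 of them passed the adjusted threshold, as did 0 of all genes tested. The unadjusted threshold was passed by 2 of 14 (Col1a2 and Col3a1), beside 0.609% of all genes. Of the 14, only Col1a2 did not overlap between the groups (7.14%), beside 3.59% of all genes. The part of these lower feeder marker levels in the results below was not tested. In bulk RNA of such a mixture, fewer cells of a type and less RNA per cell cannot be told apart. Of the macrophage markers, Csf1r and Adgre1 had 0 to 2 counts per library and Ptprc 1 to 26. The summed list of 14.1 to 22.6 CPM in Ground and 17.3 to 21.9 in Space was thus nearly all Cd68. The 3 Sertoli cell markers summed to 24.2 to 27.2 CPM in Ground and 25.0 to 26.2 in Space. This sum was mostly Wt1 and Sox9, and Amh had 1 to 23 counts per library.

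In a fit with group as its only term, none of the 10 genes differed between Space and Ground GS cells beyond the spread between libraries. With edgeR's quasi-likelihood test, 0 of 10 had a Benjamini-Hochberg adjusted p under 0.05, as did 0 of the 15104 genes tested (0%), and the adjusted p of each of the 10 was 0.9999. An unadjusted p under 0.05 was reached by 0 of the 10 and by 92 of all genes (0.609%). That share is below the 0.05 that this threshold would give on average without any difference. The absence of calls is thus no evidence that the groups were equal, and why the share was low was not tested. In none of the 10 did the 3 Space libraries all lie above or all below the 3 Ground libraries, a pattern found in 542 of all genes (3.59%). The fitted log2 fold change of Space over Ground was above 0 in 4 genes and below 0 in 6, from -0.23 for Hspb1 to 0.057 for Hsph1. Its median was -0.018, beside -0.0020 over all genes tested. These signs depended on the scaling, since with total counts in place of TMM 8 genes were above 0 and 2 below, as the median of all genes moved to 0.033.

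**Figure D1:**
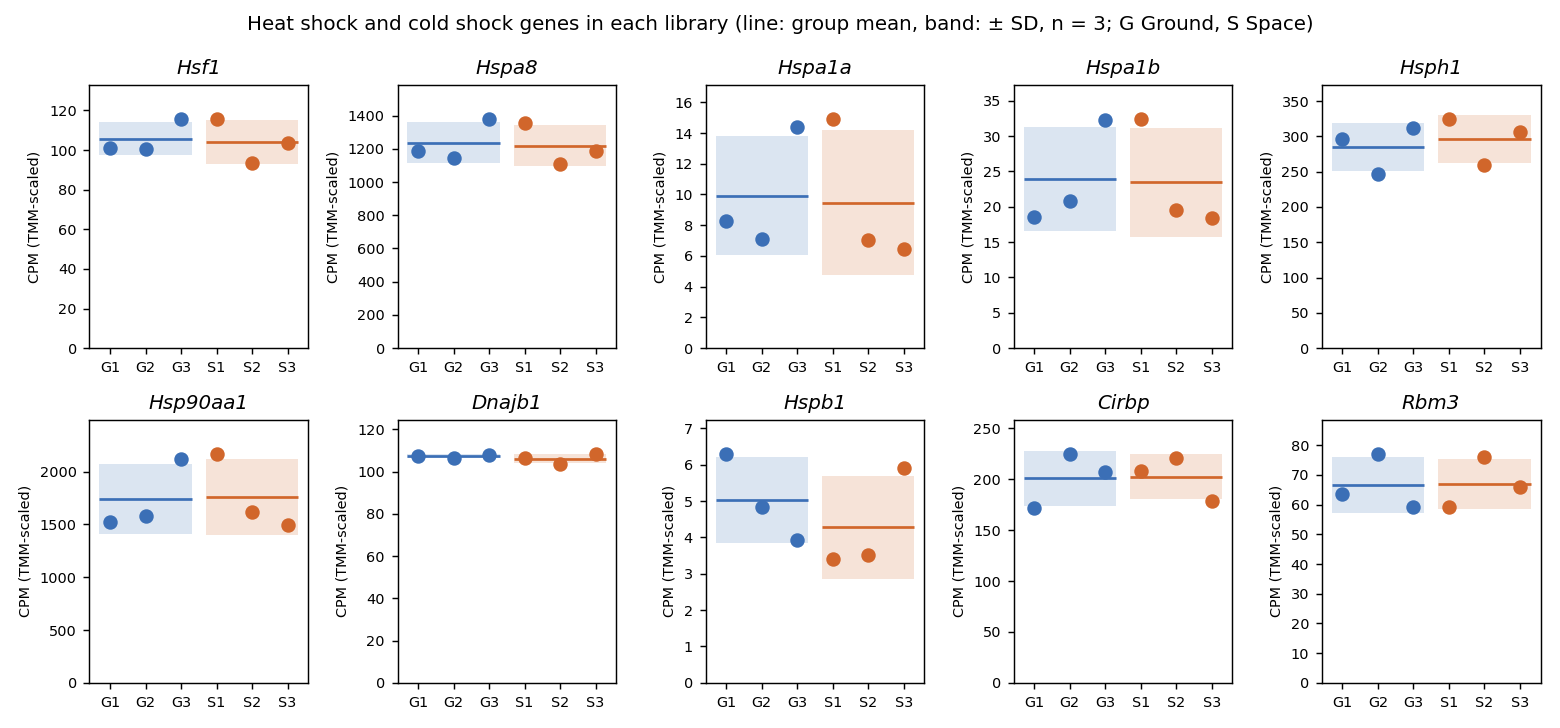
Level of each of the 10 genes in each library, in CPM on a linear axis from 0, with Ground libraries in blue (G1 to G3) and Space libraries in orange (S1 to S3). Lines are group means and bands ± 1 SD over 3 libraries, and in every panel the groups overlap, while Ground-3 and Space-1 stand above the other 4 in Hspa1a, Hspa1b and Hsp90aa1.

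Hsf1, the transcription factor that drives the heat shock response (ENSMUSG00000022556, GRCm38 chromosome 15, 76477422 to 76501913, plus strand), had 101.3, 100.5 and 115.6 CPM in Ground-1, Ground-2 and Ground-3. It had 115.5, 93.6 and 103.6 CPM in Space-1, Space-2 and Space-3. Ground-3 and Space-1 were the highest libraries and differed by less than 1 CPM, and the groups overlapped. Group means were 105.8 ± 8.48 CPM for Ground and 104.2 ± 11.01 for Space (SD, n = 3), which gave a log2 fold change of -0.021 with a 95% interval of -0.24 to 0.19. HSF1 is controlled mainly at the protein level, by release from chaperones, trimer formation and phosphorylation, none of which RNA counts record.

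The HSP70 family binds short hydrophobic stretches of unfolded proteins, and its members differ in how they are controlled. Hspa8, the HSP70 that cells make without stress (ENSMUSG00000015656, chromosome 9, 40800984 to 40810087, plus strand), had 1188, 1148 and 1378 CPM in the Ground libraries 1 to 3 and 1353, 1111 and 1188 CPM in the Space libraries 1 to 3. Its group means of 1238 ± 123 and 1217 ± 123 CPM differed by -0.024 on the log2 scale (95% interval -0.25 to 0.20). Ground-3 and Space-1 were again the highest, and the highest library was 1.24 times the lowest.

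Hspa1a and Hspa1b, the stress-inducible HSP70 genes, are neighbours on the minus strand of chromosome 17 without introns. Hspa1a (ENSMUSG00000091971) lies at 34969190 to 34972156 and Hspa1b (ENSMUSG00000090877) at 34956436 to 34959238, and their coding regions are 1926 and 1929 bases long. Over the 250 bases before the start site in RefSeq (GRCm38.p6) the pair differed at 3 positions, C44T, T47C and T249G, an identity of 98.8% (Hspa1a base first, position counted from 1 at the 5′ end of the 250 bases, then Hspa1b base). The 150 bases next to the start are printed because they carry the same match to adjoining repeats of the heat shock factor motif in both genes, in capitals. The Hspa1a stretch is chr17:34972157-34972306 and that of Hspa1b chr17:34959239-34959388, both read on the minus strand.
Hspa1a: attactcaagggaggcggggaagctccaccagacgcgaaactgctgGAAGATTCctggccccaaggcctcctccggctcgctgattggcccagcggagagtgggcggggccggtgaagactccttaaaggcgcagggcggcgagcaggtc
Hspa1b: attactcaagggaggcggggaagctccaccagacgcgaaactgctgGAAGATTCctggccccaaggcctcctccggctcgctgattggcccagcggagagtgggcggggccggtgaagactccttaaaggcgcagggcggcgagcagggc

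Adjoining repeats were searched as GAANNTTC and TTCNNGAA, each of which reads the same on both strands and which can overlap each other. These are only a core of the motif, and longer runs of repeats were not searched. GAANNTTC occurred in 7.86% and TTCNNGAA in 8.52% of 32851 RefSeq promoter windows, which run from 250 bases before to 50 after a start, and 15.1% held either. The match in Hspa1a and Hspa1b began 104 bases before the start. A match of letters does not show that a factor was bound in these cells.

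Hspa1a had 8.27 CPM in Ground-1, with 7.13 in Ground-2 and 14.4 in Ground-3, on 201, 134 and 328 counts. Its level was 14.9 CPM in Space-1, with 7.03 in Space-2 and 6.47 in Space-3, on 362, 132 and 162 counts. Ground-3 and Space-1 thus held about the same high level, and the other 4 lay between 6.47 and 8.27 CPM. The group means were 9.92 ± 3.89 CPM for Ground and 9.47 ± 4.71 for Space (SD, n = 3). The log2 fold change of -0.067 had a standard error of 0.38 and a 95% interval of -0.95 to 0.81, the widest interval of the 10 genes.

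Hspa1b showed the same order of libraries at the top. It had 18.6, 20.8 and 32.3 CPM in the Ground libraries 1 to 3 and 32.4, 19.5 and 18.5 CPM in the Space libraries 1 to 3. Means were 23.9 ± 7.37 CPM for Ground and 23.5 ± 7.74 for Space, and the log2 fold change was -0.024 (standard error 0.27, 95% interval -0.65 to 0.61). Counts of the pair are uncertain as a split between the 2 genes. Windows of 76 bases, the read length in the study's methods, were compared between annotated transcripts. Of these windows, 61.5% of those of Hspa1a and 55.6% of those of Hspa1b also occur in another gene, mostly in each other. The exons of Hspa1a overlap Gm20481 on the opposite strand by 564 bases. How such reads were counted is not stated, and their part in these levels was not tested. Summed over the pair, the level was 26.8, 27.9 and 46.7 CPM in the Ground libraries 1 to 3 and 47.3, 26.6 and 24.9 CPM in the Space libraries 1 to 3, so the high level in Ground-3 and Space-1 does not depend on the split.

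Hsph1, a member of the HSP110 family that exchanges the nucleotide of HSP70 (ENSMUSG00000029657, chromosome 5, 149614287 to 149636376, minus strand), had 296.1, 247.2 and 312.0 CPM in the Ground libraries 1 to 3. Space-1, Space-2 and Space-3 had 324.3, 259.1 and 306.2 CPM. Its low libraries were Ground-2 and Space-2, at 247.2 and 259.1 CPM, and the remaining 4 lay between 296.1 and 324.3. Group means of 285.1 ± 33.8 and 296.6 ± 33.6 CPM gave the highest fitted value of the 10 genes, 0.057 on the log2 scale (95% interval -0.20 to 0.31). The RefSeq table held 2 overlapping windows for Hsph1, and in each 3 matches to GAANNTTC or TTCNNGAA were found. TTCTCGAA stood 33 bases before the first start and 54 before the second, and TTCTGGAA and GAAAGTTC lay after both starts.

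Hsp90aa1, the stress-inducible cytosolic HSP90, which folds kinases and steroid receptors and holds HSF1 inactive (ENSMUSG00000021270, chromosome 12, 110690605 to 110702728, minus strand), had 1519 CPM in Ground-1, with 1578 in Ground-2 and 2121 in Ground-3. The Space libraries held 2167 CPM in Space-1, with 1615 in Space-2 and 1495 in Space-3. Ground-3 and Space-1 stood above the other 4 libraries, which ranged from 1495 to 1615 CPM. Group means were 1740 ± 332 CPM for Ground and 1759 ± 359 for Space (SD, n = 3; log2 fold change 0.016, 95% interval -0.38 to 0.41). Its constitutive partner Hsp90ab1 had 3073, 3087 and 3927 CPM in Ground and 3981, 3180 and 3084 CPM in Space, with the same 2 libraries highest (log2 fold change 0.022). The share of Hsp90aa1 in the counts of both genes was 34.0% ± 1.01 for Ground and 33.9% ± 1.31 for Space (SD, n = 3; 2-sided exact permutation p = 0.9, smallest possible 0.1). It ran from 32.7% in Space-3 to 35.3% in Space-1. Of the windows of Hsp90aa1, 42.6% also occur in processed pseudogenes, and of those of Hspa8, 32.8% also occur in other genes, mainly processed pseudogenes and the lincRNA gene Gm26825, so both levels carry some uncertainty from the counting.

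Dnajb1, the HSP40 that delivers substrates to HSP70 and is itself a target of HSF1 (ENSMUSG00000005483, chromosome 8, 83608193 to 83612653, plus strand), had nearly the same level in every library. It had 107.7, 106.3 and 108.1 CPM in the Ground libraries 1 to 3 and 106.5, 103.8 and 108.4 CPM in the Space libraries 1 to 3. The highest library was 1.04 times the lowest, and 0.510% of all tested genes had a lower ratio. Means were 107.4 ± 0.942 CPM for Ground and 106.2 ± 2.29 for Space (SD, n = 3). The log2 fold change of -0.015 had the narrowest interval of the 10, -0.13 to 0.10. Its promoter is shown beside those of Hspa1a and Hspa1b because the 150 bases before its first RefSeq start, chr8:83608025-83608174 on the plus strand, held neither GAANNTTC nor TTCNNGAA, so no capitals are used. The lack of these letters does not show that no heat shock factor binds there.
Dnajb1: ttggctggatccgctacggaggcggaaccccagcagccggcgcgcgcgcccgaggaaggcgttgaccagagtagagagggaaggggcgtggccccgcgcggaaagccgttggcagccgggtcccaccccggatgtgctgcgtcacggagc

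Hspb1, the small heat shock protein HSP25 that keeps unfolded proteins soluble (ENSMUSG00000004951, chromosome 5, 135887919 to 135889563, plus strand), had the fewest counts of the 10. The 150 bases before its start, chr5:135887769-135887918 on the plus strand, are printed because they held 2 matches to GAANNTTC, in capitals, beginning 117 and 97 bases before the start.
Hspb1: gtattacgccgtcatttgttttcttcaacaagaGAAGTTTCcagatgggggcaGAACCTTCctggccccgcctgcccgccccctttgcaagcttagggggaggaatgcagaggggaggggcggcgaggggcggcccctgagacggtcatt

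The level of Hspb1 was 6.29 CPM in Ground-1, with 4.84 in Ground-2 and 3.94 in Ground-3, on 153, 91 and 90 counts. Its Space values were 3.42 CPM in Space-1, with 3.51 in Space-2 and 5.91 in Space-3, on 83, 66 and 148 counts. Ground-1 and Space-3 were highest here, and Space-1, one of the 2 libraries at the top for Hspa1a, was lowest. Means were 5.03 ± 1.19 CPM for Ground and 4.28 ± 1.42 for Space (SD, n = 3). The log2 fold change of -0.23 was the lowest of the 10 and less than its standard error of 0.28 (95% interval -0.88 to 0.42). A processed pseudogene, Hsp25-ps1, shares 46.3% of its windows, and Gm9817, annotated as protein-coding, shares 34.5%.

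**Figure D2:**
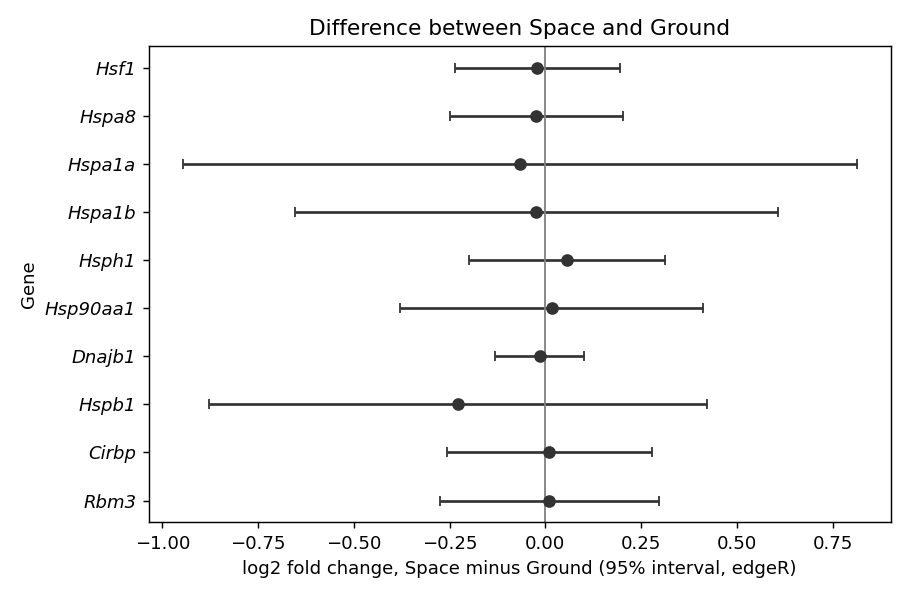
Fitted log2 fold change of Space over Ground for the 10 genes (points) with the 95% interval from edgeR (bars), on a linear axis. Every interval crosses 0, and they run from the narrow one of Dnajb1, -0.13 to 0.10, to the wide one of Hspa1a, -0.95 to 0.81.

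Cirbp and Rbm3 encode closely related RNA-binding proteins that are induced by mild cold and bind messenger RNA to sustain its translation. Cirbp (ENSMUSG00000045193, chromosome 10, 80165985 to 80172786, plus strand) had 171.7, 224.9 and 207.1 CPM in the Ground libraries 1 to 3 and 208.3, 221.4 and 178.3 CPM in the Space libraries 1 to 3. Ground-2 and Space-2 were highest, and Ground-1 and Space-3 lowest. Means of 201.2 ± 27.1 CPM for Ground and 202.7 ± 22.1 for Space (SD, n = 3) gave a log2 fold change of 0.010 with a 95% interval of -0.26 to 0.28. A stretch upstream of a RefSeq start of Cirbp inside the annotated gene, chr10:80167589-80167777 on the plus strand, is printed because it holds TCCCCGCC, the mild cold-responsive element, in capitals, 247 bases before that start.
Cirbp: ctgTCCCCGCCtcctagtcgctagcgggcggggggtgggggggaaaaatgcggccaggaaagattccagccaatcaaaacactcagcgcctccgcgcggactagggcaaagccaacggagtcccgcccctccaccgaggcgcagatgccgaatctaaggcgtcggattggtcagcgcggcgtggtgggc

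TCCCCGCC, searched on both strands, occurred in 5.38% of all promoter windows. It is not particular to cold shock genes, since Hspa1a and Hspa1b carry it on the opposite strand 137 bases before their start. No promoter of Rbm3, Hspa8, Hsp90aa1 or Hsf1 is shown, because the RefSeq table used held 6 of the 10 genes.

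Rbm3 (ENSMUSG00000031167, chromosome X, 8138975 to 8145880, minus strand) had 63.5, 77.0 and 59.1 CPM in the Ground libraries 1 to 3 and 59.3, 75.9 and 65.9 CPM in the Space libraries 1 to 3. As for Cirbp, Ground-2 and Space-2 were the highest libraries, which are also those with the largest mitochondrial share. With mitochondrial genes taken out before scaling, Ground-2 and Space-2 were still highest for both genes, and the ratio of the highest to the lowest library was 1.309 for Cirbp and 1.301 for Rbm3, beside 1.309 and 1.305 with them. That removal moved every library by nearly the same factor, so it could hardly change the order. The part of the mitochondrial share in this order was not tested. Means of Rbm3 were 66.5 ± 9.37 CPM for Ground and 67.0 ± 8.36 for Space (SD, n = 3; log2 fold change 0.011, 95% interval -0.27 to 0.30). Its exons overlap the antisense gene Rbm3os by 94 bases, and whether the counting used strand is not stated.

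Although Cirbp and Rbm3 shared their highest libraries, their ratio was not constant. Rbm3 made up 27.0%, 25.5% and 22.2% of the counts of both genes in the Ground libraries 1 to 3 and 22.1%, 25.5% and 27.0% in the Space libraries 1 to 3. The 95% Wilson interval was 25.9 to 28.2% for Ground-1 and 21.2 to 23.3% for Ground-3, and it was 21.2 to 23.2% for Space-1 and 25.9 to 28.1% for Space-3. These intervals cover counting error only. Each Space library therefore had a Ground library with nearly the same share, and the group means of 24.9% ± 2.46 and 24.9% ± 2.49 differed by less than the spread between libraries (SD, n = 3; 2-sided exact permutation p = 0.9, smallest possible 0.1). For Hspa1a within Hspa1a and Hspa1b the share was 30.8%, 25.5% and 30.8% in the Ground libraries 1 to 3 and 31.5%, 26.5% and 26.0% in the Space libraries 1 to 3. The group means were 29.1% ± 3.05 and 28.0% ± 3.07 (SD, n = 3; 2-sided exact permutation p = 1, smallest possible 0.1).

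**Figure D3:**
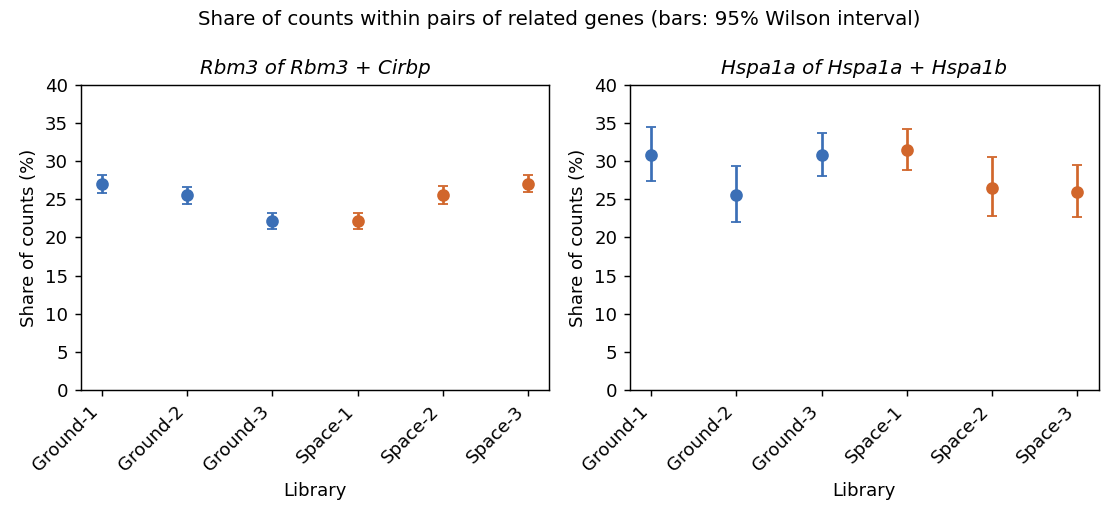
Share of the counts of a gene pair that fell on Rbm3 (left, of Rbm3 and Cirbp) and on Hspa1a (right, of Hspa1a and Hspa1b), in percent from 0, for each library, with Ground in blue and Space in orange. Bars are 95% Wilson intervals of counting error, and the Rbm3 share is lowest in Ground-3 and Space-1, at 22.2% and 22.1%.

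Per kilobase of merged exons, Hsp90aa1 was the most abundant of the 10 at 445.0 CPM per kb (380.3 to 551.4 over the 6 libraries), followed by Hspa8 at 285.4 (258.4 to 320.3). Cirbp stood at 77.6 CPM per kb (66.0 to 86.4), Hsph1 at 40.03 (34.0 to 44.6) and Dnajb1 at 33.3 (32.4 to 33.8). The ranges of these 5 genes did not overlap on this scale. Hsf1 at 14.8 CPM per kb (13.2 to 16.3) and Rbm3 at 14.2 (12.6 to 16.4) were not apart beyond their ranges. Hspa1b followed at 8.45 (6.59 to 11.6), Hspb1 at 4.51 (3.31 to 6.10) and Hspa1a at 3.27 (2.18 to 5.02), and the ranges of the last 2 overlapped. The constitutive Hspa8 was thus far above the inducible Hspa1a and Hspa1b in all 6 libraries. Scaled by the length of windows unique to each gene, in case shared reads were discarded, the levels were 8.71 CPM per kb for Hspa1a, 19.5 for Hspa1b, 369.7 for Hspa8 and 765.3 for Hsp90aa1. On that scale the mean of Hspa1b was above those of Rbm3 (13.9) and Hsf1 (13.1). The range of Hspa1b over the libraries overlapped that of Rbm3 but not that of Hsf1. The mean of Hspa1a was above that of Hspb1 (8.42), but their ranges overlapped. The ranges of Hsph1 (32.6 to 42.7) and Dnajb1 (33.2 to 34.6) overlapped too.

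The spread of a gene over the libraries differed widely among the 10. The ratio of the highest to the lowest library was 2.30 for Hspa1a, above 86.0% of all tested genes, 1.84 for Hspb1 and 1.75 for Hspa1b. It was 1.45 for Hsp90aa1, 1.31 for Hsph1 and Cirbp, 1.305 for Rbm3, and 1.24 for Hspa8 and Hsf1. The median ratio was 1.31 both for the 10 and for all tested genes, and the plot of the ratio against the level shows higher ratios among genes with few counts.

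**Figure D4:**
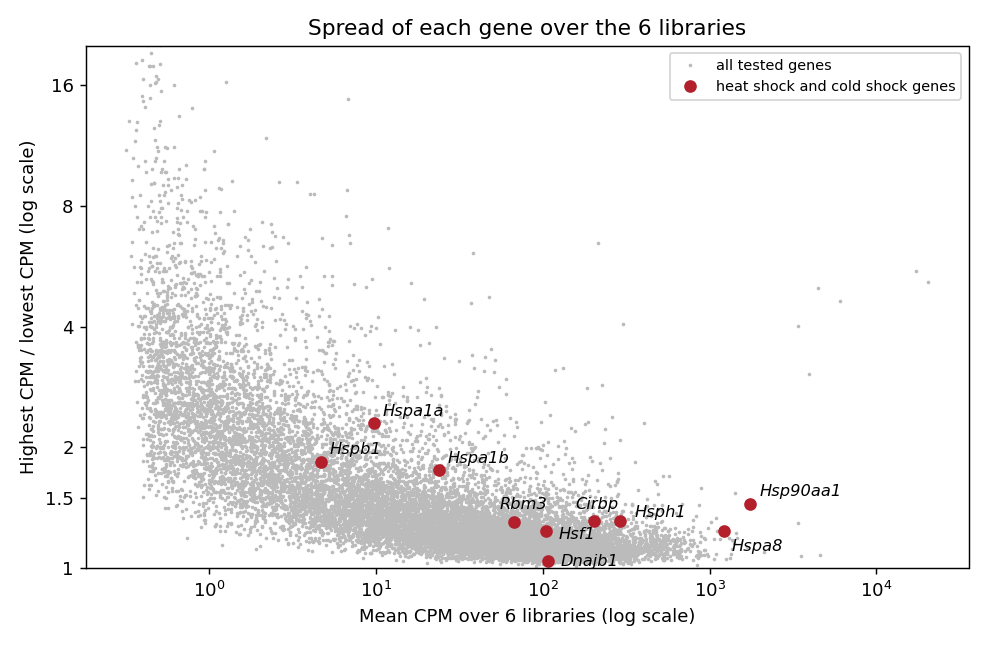
Ratio of the highest to the lowest CPM over the 6 libraries against mean CPM, both axes logarithmic, for all tested genes (grey) and the 10 heat shock and cold shock genes (red). Hspa1a has the highest ratio of the 10 at 2.30 and Dnajb1 the lowest at 1.04, and 16 genes with a ratio above 20 lie outside the plot.

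Ground-3 and Space-1 were the 2 highest libraries in 6 of the 10 genes (Hspa1a, Hspa1b, Hspa8, Hsph1, Hsp90aa1 and Hsf1). The same 2 libraries were highest in 23.5% of all tested genes (3546) and in 47 of 102 related genes (46.1%). Ground-2 and Space-2 were highest in Cirbp and Rbm3, as in 10.1% of all tested genes, and Ground-1 and Space-3 in Hspb1, as in 3021 of them. Each of these combinations joins the 2 libraries that correlated best over all genes, at a Pearson's r of 0.9936, 0.9936 and 0.9957 in log2 CPM (taken across genes, so a description only). The mean chi-square of the counts was also lowest for Ground-1 and Space-3 (1.84), but it ordered the other libraries differently. By it Ground-3 was nearer to Space-2 (13.8) than to Space-1 (24.3), and Space-2 was nearer to Ground-3 than to Ground-2 (17.2). Each combination also holds 1 library of each group. As this resemblance comes from the values and no label states it, no fit used it as a block, and the tests above do not take it into account. Differences between the combinations therefore count as spread within the groups in those tests. Within all 3 combinations Hsph1 was higher in the Space library, as were 1976 of all tested genes (13.1%), and Hspb1 was lower, as were 2235 (14.8%). The other 8 genes had differing signs. These counts are a description without a test. The summed feeder fibroblast markers were lowest in Space-1, at 819 CPM, and Ground-3, at 973 CPM, lay within the range of the other 4 libraries, 926 to 1038. Single markers differed from this sum. Ground-3 was next to lowest, above Space-1 alone, in Col5a1, Postn, Lum, Pdgfrb, Acta2 and Fbn1. It was next to highest in Col1a2, Col3a1 and Fn1, and between these places in the other markers. The part of feeder RNA in the order of the libraries was not tested.

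**Figure D5:**
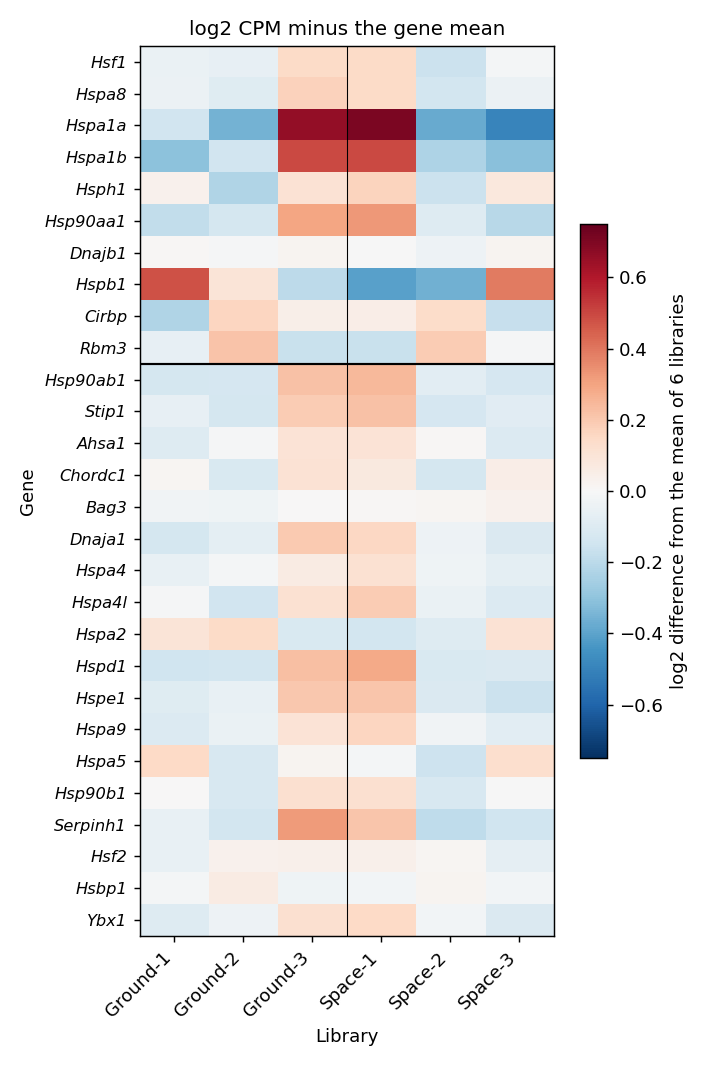
log2 CPM of each gene minus its mean over the 6 libraries, from blue (below the mean) to red (above), for the 10 genes (above the thick line) and 18 related genes (below it), with Ground left and Space right of the thin vertical line. Ground-3 and Space-1 are red in most rows, Ground-2 and Space-2 in Cirbp and Rbm3, and Dnajb1 and Bag3 stay near white.

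The related genes were 107 genes listed as chaperones, co-chaperones, heat shock factors and their regulators, or cold shock domain genes. Of these, 102 passed the filter. With edgeR's quasi-likelihood test 0 of 102 had an adjusted p under 0.05, as did 0 of all genes tested. An unadjusted p under 0.05 was reached by 1 of 102, beside 0.609% of all genes. The fitted log2 fold change was above 0 in 42 and below 0 in 60, with a median of -0.0066, and with total counts in place of TMM 78 were above 0 and 24 below. The splits given below for each list are those under TMM and moved likewise with total counts, except that of the small heat shock genes. The 3 Space and 3 Ground libraries did not overlap in 2 of them (1.96%), Bag3 and Pdia4, beside 3.59% of all genes. The 5 genes below the filter were Cryaa and Hsfy2, with 0 counts in every library, and Hspb3, Hspb9 and Hsbp1l1.

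Among the 8 other HSP70 and HSP110 genes 5 were fitted above and 3 below 0. Hspa4 and Hspa4l, which act as nucleotide exchange factors like Hsph1, had 833.8 ± 35.2 and 101.7 ± 9.12 CPM in Ground and 837.9 ± 56.6 and 103.6 ± 11.7 in Space. Hspa2, the HSP70 needed in meiosis, had 24.3 ± 2.24 CPM for Ground and 22.9 ± 2.17 for Space. Hspa1l, the testis HSP70 beside Hspa1a in the genome, had 2.79 ± 0.206 and 2.26 ± 0.501 CPM and the smallest unadjusted p of this group (0.24 in edgeR, log2 fold change -0.30).

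Of 16 genes of the HSP90 family and its co-chaperones, 6 were fitted above and 10 below 0. Stip1, which passes clients from HSP70 to HSP90, had 440.2, 420.1 and 524.8 CPM in Ground and 536.1, 422.1 and 433.1 CPM in Space, again with Ground-3 and Space-1 on top. Ahsa1, which activates the ATPase of HSP90, had 246.1 ± 17.5 and 246.8 ± 17.9 CPM. Chordc1, another HSP90 partner, had 58.1 ± 4.45 and 57.8 ± 4.43 CPM. Sugt1 had the smallest p here, with a log2 fold change of -0.092.

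Of the 9 genes listed as HSP70 co-chaperones 4 were fitted above and 5 below 0. Bag3, an HSF1 target that links HSP70 to small heat shock proteins and autophagy, had 41.1, 40.9 and 42.0 CPM in Ground and 42.1, 42.4 and 42.8 CPM in Space. These groups did not overlap, but the log2 fold change was 0.037 with a standard error of 0.064, and the unadjusted p in edgeR was 0.57. Dedd2 had the smallest p of the list, at a log2 fold change of 0.063. It encodes a death effector domain protein and is not an HSP70 co-chaperone. In the HSP40 family, 10 of 15 genes were fitted above and 5 below 0. Dnaja1, an HSP40 of the cytosol, had 333.4, 347.1 and 419.1 CPM in Ground and 407.0, 355.8 and 338.7 CPM in Space. Dnajb6 had the smallest p, with a log2 fold change of 0.056.

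Only 6 of 9 other small heat shock genes were tested, 2 fitted above and 4 below 0 with a median log2 fold change of -0.16, and they had a median ratio of 2.39 between the highest and the lowest library. Hspb8, a partner of BAG3, had 0.987, 1.97 and 2.45 CPM in the Ground libraries 1 to 3 and 0.905, 1.01 and 0.759 CPM in the Space libraries 1 to 3. Ground-1 lay within the Space range, so the groups overlapped. It was the 1 related gene with an unadjusted p under 0.05 (0.030 in edgeR, log2 fold change -1.01, standard error 0.38) and did not pass the adjusted threshold (adjusted p = 0.9999). With limma-voom, with the replicate block and without any 1 library other than Ground-1, no related gene had an unadjusted p under 0.05. Cryab had 2.90 ± 0.665 CPM for Ground and 2.74 ± 0.460 for Space.

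Among heat shock factors and their regulators, 1 of the 6 tested was fitted above and 5 below 0. Hsf2, a factor with a role in spermatogenesis, ranged from 77.0 to 82.7 CPM, and Hsbp1, a small protein that binds HSF1, from 103.9 to 110.8 CPM over the 6 libraries. Hsf3 had 4.58 ± 0.526 CPM for Ground and 3.51 ± 0.662 for Space (SD, n = 3; log2 fold change -0.38, unadjusted p = 0.11 in edgeR).

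Hspd1 and Hspe1, the mitochondrial chaperonin and its lid, had their highest levels in Ground-3 and Space-1. Hspd1 had 396.6, 398.8 and 513.6 CPM in Ground and 534.4, 405.0 and 406.9 CPM in Space. Hspe1 had 221.5, 227.1 and 271.4 CPM in Ground and 271.9, 218.3 and 210.7 CPM in Space. Hspa9, the mitochondrial HSP70, had 542.4 ± 40.3 and 555.7 ± 49.8 CPM, and of the 9 mitochondrial genes 3 were fitted above and 6 below 0, with the smallest p for Grpel1 (log2 fold change -0.048). All 8 subunits of TRiC, the chaperonin of the cytosol, were tested, 5 above and 3 below 0, with fitted values from -0.0086 to 0.045, the latter for Cct4.

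In the endoplasmic reticulum 3 of 17 genes were fitted above and 14 below 0, with a median log2 fold change of -0.029. Hspa5 (BiP), its HSP70, had 625.2, 520.3 and 572.0 CPM in Ground and 558.4, 505.9 and 614.9 CPM in Space, with Ground-1 and Space-3 highest. Hsp90b1, its HSP90, had 941.5 ± 78.2 and 941.9 ± 78.4 CPM. Serpinh1, the collagen chaperone HSP47, which fibroblasts also make in quantity, had 80.2, 75.8 and 103.9 CPM in Ground and 96.4, 73.1 and 75.2 CPM in Space. The part of feeder RNA in its level was not tested. Pdia4, a disulfide isomerase, had 298.3 ± 6.11 CPM for Ground and 288.6 ± 4.78 for Space, with no overlap and a log2 fold change of -0.048 (standard error 0.049, unadjusted p = 0.36 in edgeR). Sil1 had the smallest p of the list, at a log2 fold change of 0.12.

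Among 8 genes with a cold shock domain, the fold shared with bacterial cold shock proteins, 3 were fitted above and 5 below 0. Ybx1, which packages messenger RNA, had 559.4 ± 44.2 CPM for Ground and 564.3 ± 51.6 for Space. Csdc2 had the smallest p of this list, with a log2 fold change of 0.14. The highest libraries of Ybx1 were Ground-3 and Space-1, whereas those of Cirbp and Rbm3 were Ground-2 and Space-2.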

How the data were processed

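RNA-seq was analysed from 1 deposited table of raw counts per gene in 6 libraries of GS cells. Per the labels, the authors used bcl2fastq 2.20, cutadapt 4.1, HISAT2 2.2.1 and HTSeq 2.0.2 with mm10, and the study's methods name GENCODE M21. Strand setting and treatment of reads shared by genes are not given in the sources used here, and the labels and methods name different kits, sequencers and read layouts. Of 32285 identifiers, 32235 were found in GENCODE M21.

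The test was edgeR's quasi-likelihood F test (edgeR 4.0.16, R 4.3.3), 2-sided and with group as its only term, on all 15104 genes kept by filterByExpr, with TMM scaling and Benjamini-Hochberg adjustment at 0.05. The common biological coefficient of variation was 13.9%. Shares were compared by exact permutation of the 6 libraries. Scripts were tested on simulated data. Lengths and positions came from GENCODE M21, and promoters from RefSeq tables of GRCm38.p6. Read sharing was gauged with 76-base windows of the annotated transcripts, the length of the single reads in the study's methods. As the labels name another read layout, the shares may differ for the reads counted here.

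The settings varied were the scaling (RLE or total counts), the filter, the threshold (0.10), the tool (DESeq2 1.42.0 or limma-voom of limma 3.58.1), a block for the replicate number, removal of mitochondrial genes, and leaving out libraries. The genes and lists were chosen with earlier results of these data known. Named were the 10 genes, 22 preset relatives, and in each list of related genes the one with the smallest p. A preset relative is not reported here. Pdia4 was named after its values were seen, and so were the genes below the filter. The same-numbered libraries deviated together for number 2 but not for numbers 1 and 3, so replicate numbers were not taken as pairs. The signs within the most correlated libraries were counted after the data were seen.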

Additional observations from a re-analysis of the deposited data

How the results depend on the processing

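Under all 16 alternatives 0 genes passed the adjusted threshold among all genes tested, and 0 of the 10 genes and 0 of the related genes passed in the 15 alternatives run for them. The unadjusted count over all genes was 92 in edgeR, 45 in DESeq2, 192 without a filter, 170 with a row total of at least 10 counts and 64 to 161 when a library was left out (161 without Ground-1). The fit with the replicate number as replicate block called 0 genes, with 63 at an unadjusted p under 0.05. The correlations of deviations in same-numbered libraries were -0.54, 0.33 and -0.61 for numbers 1, 2 and 3. Across the groups, 2 of 6 libraries correlated best with their own number, so the numbers did not pair all libraries. The smallest adjusted p of any of the 10 genes over all alternatives was 0.9997 (edgeR, DESeq2 or limma-voom).

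Over the 15 alternatives the sign of the fitted change turned at least once for 9 of the 10 genes, all but Hspb1. With total counts, the log2 fold change was 0.012 for Hspa1b, 0.011 for Hspa8, 0.020 for Dnajb1 and 0.015 for Hsf1. Without Ground-2 and Space-2, the libraries with the highest mitochondrial share, it was 0.0044 for Hspa1b and 0.018 for Hsf1. Leaving out each library in turn gave -0.092 to 0.098 for Cirbp, -0.087 to 0.13 for Rbm3, -0.56 to 0.31 for Hspa1a, -0.33 to 0.26 for Hspa1b, -0.11 to 0.066 for Hspa8, -0.036 to 0.15 for Hsph1, -0.16 to 0.19 for Hsp90aa1, -0.029 to 0.0014 for Dnajb1, -0.10 to 0.053 for Hsf1 and -0.54 to -0.029 for Hspb1. The median of the 10 ran from -0.093 (without Space-1) to 0.059 (without Ground-3). The 95% intervals of Hspa1a, Hspa1b and Hspb1 include differences that those of Dnajb1 and Hsf1 leave out, and counting depth and spread between libraries were not separated as limits. Hspb1 had 66 to 153 counts per library.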
